A study of Mus musculus with 15 samples.

Results

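The comparison described here sets the skin of mice with graft-versus-host disease against the skin of transplanted controls, both given vehicle only, across all measured genes. Its members are 7 of the 15 libraries in the deposited table, chosen by their group labels. They are 4 libraries of syngeneic recipients and 3 of allogeneic recipients. All mice came from a sclerodermatous model of this disease in its chronic form, in which bone marrow is transplanted from a genetically matched (syngeneic) or mismatched (allogeneic) donor. Both groups received 0.4% methylcellulose by oral gavage daily from day 21 to day 49 after the transplant, and the mice were killed on that last day. Total RNA of whole skin was sequenced, so each value is an average over all cell types of a piece. The mouse strains, the sex and the age are not given in the sources used here. No label says that the libraries of a group come from separate mice, so p-values measure only the spread between these libraries, which may be technical. The controls carry a transplant and the vehicle too, and untransplanted skin was not analysed here.

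In chronic graft-versus-host disease donor T cells recognise the tissue of the recipient as foreign. They release interferon-gamma, which acts through the kinases JAK1 and JAK2 and makes nearly every cell type display more antigen and recruit more leukocytes. The skin of mice with this disease is known for loss of hair and of sebaceous glands, a thickened epidermis, loss of dermal fat and a stiffened dermis.

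Libraries held between 16.26 and 20.39 M estimated counts, and 22865 to 24283 genes were detected in each. Within a group, log2 values correlated across genes at r = 0.936 to 0.976 for syngeneic and 0.938 to 0.97 for allogeneic libraries, against 0.79 to 0.865 between the groups. Genes are not independent replicates, and these values are descriptions. Principal component 1, with 72.3% of the variance, separated the groups, and component 2 took 9.3%. Markers of keratinocytes, fibroblasts, vessels and skeletal muscle fibres were present in all 7 libraries, and no marker of hepatocytes, enterocytes or neurons passed 0.892 CPM in any of them. Levels are given in CPM, counts scaled to a common library size. All 7 libraries entered the comparison. Allogeneic library 1 stood apart in neutrophil and acute cytokine genes, and allogeneic library 2 in epidermal, dendritic cell and muscle genes. Syngeneic library 3 was the highest control for interferon-stimulated genes and for Col1a1, and syngeneic library 1 the lowest for hair shaft genes. Most results that rest on 1 library are given with and without it.

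In the edgeR quasi-likelihood test with Benjamini-Hochberg adjustment, 4857 of 17635 tested genes (27.5%) were called at an adjusted p under 0.05. A total of 2493 genes (14.1%) were higher and 2364 (13.4%) lower in allogeneic skin, and 3580 (20.3%) differed by at least 2-fold. These shares are the background for the counts of gene lists below. A gene near 0 in 1 group passes the filter on low counts only if it is high enough in the other. This favours calls in lists with many such genes. The libraries of both groups did not overlap for 4675 of the called genes (96.3%), and for 37.5% of all tested genes. The median log2 fold change of all tested genes was −0.06. Rises outnumbered falls at a log2 fold change of at least 1, with 1950 genes higher and 1630 lower, and at 2, with 928 and 833. At 5 or more there were 140 higher and 273 lower, among them genes at 0 in a group, whose fitted values are no measured ratio. Among the genes with no count in any library of one group and at least 10 counts in every library of the other, 117 were at 0 in allogeneic skin and 20 in syngeneic skin. In bulk skin, fewer cells of a type and less RNA per cell cannot be told apart, and this holds for every result that follows.

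**Figure D1:**
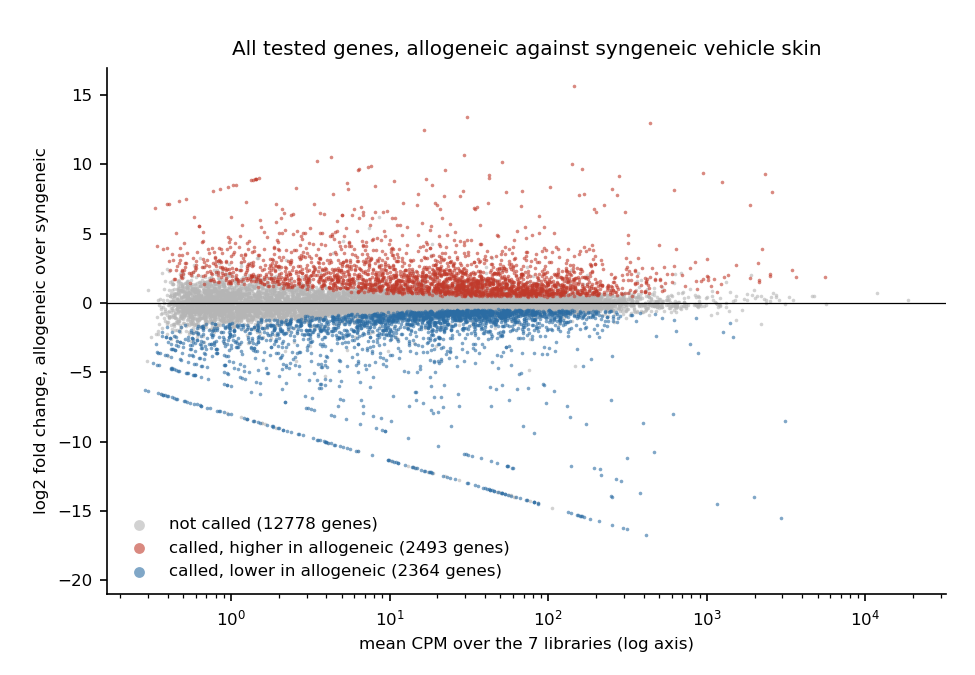
Each point is 1 of 17635 tested genes, with its mean CPM over the 7 libraries (log axis) against its log2 fold change, allogeneic over syngeneic. Red marks the 2493 genes called higher, blue the 2364 called lower and grey the rest. The straight lower edge holds genes with no counts in allogeneic skin and the short line at the upper left genes with none in syngeneic skin, whose fitted fold changes depend on a small added count and are no measured ratio.

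Most genes of interferon sensing and feedback were higher in allogeneic skin. Ifng, the cytokine itself, which activated T cells and natural killer cells make, was measured at 0.0473, 0, 0.0991 and 0.0469 CPM in the 4 syngeneic and 3.86, 3.02 and 3.65 CPM in the 3 allogeneic libraries (log2 fold change 6.00 with SE 0.58, adjusted p = 0.0001). It was close to 0 in control skin, below 3 counts per library, so the size of its ratio is uncertain. The groups did not overlap. Of the 17 tested genes of interferon sensing and feedback, 15 rose, with a median log2 fold change of 1.28 against −0.06 for all genes. The receptor chain Ifngr1 was higher by 1.10 in log2 units (adjusted p = 0.0019) and the kinase Jak1 by 1.04 (adjusted p = 0.0024). Irf1, a transcription factor that interferon-gamma induces, showed 19.5, 15.5, 29.8 and 25.2 CPM in syngeneic and 194, 157 and 171 CPM in allogeneic libraries (log2 fold change 2.95 with SE 0.24, adjusted p = 4.4e-05). Irf8, which is typical of myeloid cells, rose by 2.50 (adjusted p = 2.1e-05). Socs1, a feedback inhibitor of the JAK kinases, also rose, from 5.82, 4.29, 7.28 and 6.66 CPM to 34.5, 39.2 and 23.4 CPM (log2 fold change 2.43 with SE 0.25, adjusted p = 0.00016). The members not called were Ifnar1 (log2 fold change 0.47, adjusted p = 0.081) and Irf7 (log2 fold change 0.29, adjusted p = 0.56).

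Guanylate-binding proteins and immunity-related GTPases attack the vacuoles in which microbes live and are among the strongest targets of interferon-gamma. All 17 tested members rose, by a median of 3.89 on the log2 scale. Gbp8 was measured at 1.7, 1.17, 2.28 and 1.83 CPM in syngeneic and 55.3, 55.7 and 43.8 CPM in allogeneic skin (log2 fold change 4.88 with SE 0.25, adjusted p = 8.2e-06). Gbp4 reached 358, 408 and 321 CPM from 25.8, 15.8, 31 and 17.3 CPM (log2 fold change 4.01 with SE 0.27, adjusted p = 1.8e-05). The groups did not overlap for either gene. Iigp1, an immunity-related GTPase, was at 37.6, 20.4, 52.9 and 25.9 CPM against 619, 943 and 540 CPM (log2 fold change 4.36 with SE 0.37, adjusted p = 5.5e-05), and allogeneic library 2 was the highest for it, as for Igtp, at 265, 720 and 246 CPM in the 3 diseased libraries and 18.2, 13.2, 43.6 and 14.5 CPM in controls (log2 fold change 4.20, 3.51 without allogeneic library 2 and 4.81 without syngeneic library 3). Together these genes took 0.0348, 0.0183, 0.0489 and 0.0216% of the counts in syngeneic libraries 1 to 4 and 0.364, 0.52 and 0.33% in allogeneic libraries 1 to 3, in the plot of library shares. The exact two-sided permutation p of that share was 0.057, the smallest that 4 against 3 libraries can give. Several of these genes have near-identical copies, so the split of reads among single Gbp genes is uncertain.

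The start regions of these genes carry short sequence elements that interferon factors are known to bind. The gamma-activated site, TTCNNNGAA, is the element of the interferon-gamma response, and the interferon-stimulated response element was searched as a pair of GAAA runs with any 2 bases between them. Both were sought on both strands, and the 2 motifs can overlap, from 250 bases before to 50 after the start in RefSeq promoters (GRCm38.p6), which matched 12345 of the tested genes (70.1%). A gene counted as holding a motif if any of its promoters did, and 4163 genes of the RefSeq set had more than 1 promoter. Of the 10 guanylate-binding and GTPase genes with a promoter, 10 held the response element and 6 the gamma-activated site. This compares with 3.92% and 8.49% of all 12345 matched genes. Counted per promoter, the shares were 3.44% and 8.3% of all 32851 promoters. Among matched genes that were higher in allogeneic skin, 8.38% of 1778 held the response element and 11.2% the gamma-activated site. Among matched genes that were lower, the shares were 2.96% and 7.28% of 1690. The number of promoters per gene was not compared between these sets. A match is a description of letters and not a measured binding site. The 250 bases before the start are shown for 4 genes, chosen after their values were seen as examples of each arrangement, with motif matches in capitals. Positions are counted back from the transcription start.
Irf1 (chr11:53769764-53770013, plus strand, gamma-activated site at −90): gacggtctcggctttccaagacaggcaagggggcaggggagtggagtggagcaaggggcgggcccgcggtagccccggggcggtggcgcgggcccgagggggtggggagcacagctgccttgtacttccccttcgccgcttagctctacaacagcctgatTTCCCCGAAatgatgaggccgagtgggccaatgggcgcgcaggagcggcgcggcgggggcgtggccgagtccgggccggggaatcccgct
Igtp (chr11:58199306-58199555, plus strand, gamma-activated site at −45 and response element at −34): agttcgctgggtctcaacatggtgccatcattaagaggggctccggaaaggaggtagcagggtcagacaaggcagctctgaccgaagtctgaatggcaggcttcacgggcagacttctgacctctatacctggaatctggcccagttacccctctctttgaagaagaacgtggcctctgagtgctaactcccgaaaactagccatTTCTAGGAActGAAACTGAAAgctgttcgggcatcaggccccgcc
Gbp5 (chr3:142496684-142496933, plus strand, gamma-activated sites at −245 and −52 and response element at −165): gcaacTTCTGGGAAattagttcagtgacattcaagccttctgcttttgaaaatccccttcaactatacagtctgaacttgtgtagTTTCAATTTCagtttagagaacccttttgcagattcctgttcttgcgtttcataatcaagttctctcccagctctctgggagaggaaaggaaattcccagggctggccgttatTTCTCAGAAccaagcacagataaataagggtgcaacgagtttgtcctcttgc
Irgm1 (chr11:48871421-48871670, minus strand, overlapping response elements at −30 and −24): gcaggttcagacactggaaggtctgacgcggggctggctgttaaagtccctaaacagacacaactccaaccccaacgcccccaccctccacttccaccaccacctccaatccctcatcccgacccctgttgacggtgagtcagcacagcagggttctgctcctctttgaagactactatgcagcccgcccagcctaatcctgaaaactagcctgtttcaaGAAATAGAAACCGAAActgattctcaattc
Irf1 carries a gamma-activated site and no response element in this window, Irgm1 the reverse, and Igtp and Gbp5 hold both. Gbp5 was measured at 7.91, 3.66, 19 and 5.96 CPM in syngeneic and 101, 107 and 107 CPM in allogeneic skin (log2 fold change 3.53 with SE 0.51, adjusted p = 0.0016, and 4.23 on the log2 scale without syngeneic library 3), and Irgm1 at 28.2, 15.2, 49.2 and 21.4 CPM and 270, 406 and 231 CPM (log2 fold change 3.41 with SE 0.40, adjusted p = 0.00037).

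Antigen presentation was higher on both of its arms. Class I molecules display peptides from inside the cell to CD8 T cells, and of the 21 genes of class I and its peptide supply 19 rose (median log2 fold change 1.52). The heavy chain H2-D1 was at 871, 877, 1622 and 1324 CPM in syngeneic and 3119, 3408 and 3620 CPM in allogeneic libraries (log2 fold change 1.53 with SE 0.31, adjusted p = 0.0054). The peptide transporter Tap1 rose by 1.53 (adjusted p = 0.00055) and Nlrc5, the transactivator of class I genes, by 1.48 (adjusted p = 0.00053). The class I list took 0.48, 0.436, 0.715 and 0.589% of syngeneic and 1.27, 1.36 and 1.28% of allogeneic counts (exact permutation p = 0.057). Class II molecules serve CD4 T cells, and 9 of 11 class II genes rose (median 1.74). Their transactivator Ciita was at 16.6, 11.7, 11.1 and 12.6 CPM against 31.7, 91 and 58.9 CPM (log2 fold change 2.22 with SE 0.32, adjusted p = 0.0009). Allogeneic library 2 was the highest and library 1 the lowest of the diseased libraries for Ciita and for H2-Aa (223, 181, 395 and 218 CPM in syngeneic and 516, 1265 and 773 CPM in allogeneic skin).

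The number of called genes among those known chiefly as targets of type I interferon depended on 1 control library. Of 19 tested members 7 rose and 12 were not called (median 1.06). Oas2, a sensor enzyme of viral RNA, stood at 30, 19.9, 30.1 and 10.7 CPM in syngeneic and 141, 126 and 111 CPM in allogeneic skin (log2 fold change 2.48 with SE 0.33, adjusted p = 0.00055). Ifit3, which binds viral RNA, was at 28.1, 12.8, 95 and 13.5 CPM against 18.3, 60.2 and 23 CPM (log2 fold change −0.14 with SE 0.84, adjusted p = 0.92), with syngeneic library 3 above all others. Mx1 showed 11.9, 9.32, 35.3 and 6.43 CPM against 32.2, 18.4 and 21.2 CPM, with the same control on top (adjusted p = 0.48). Without syngeneic library 3 the number of members called higher was 18 of 19. A difference between this list and the interferon-gamma targets was not tested. Without that library the log2 fold change was 0.96 for Ifit3 and 1.44 for Mx1.

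**Figure D2:**
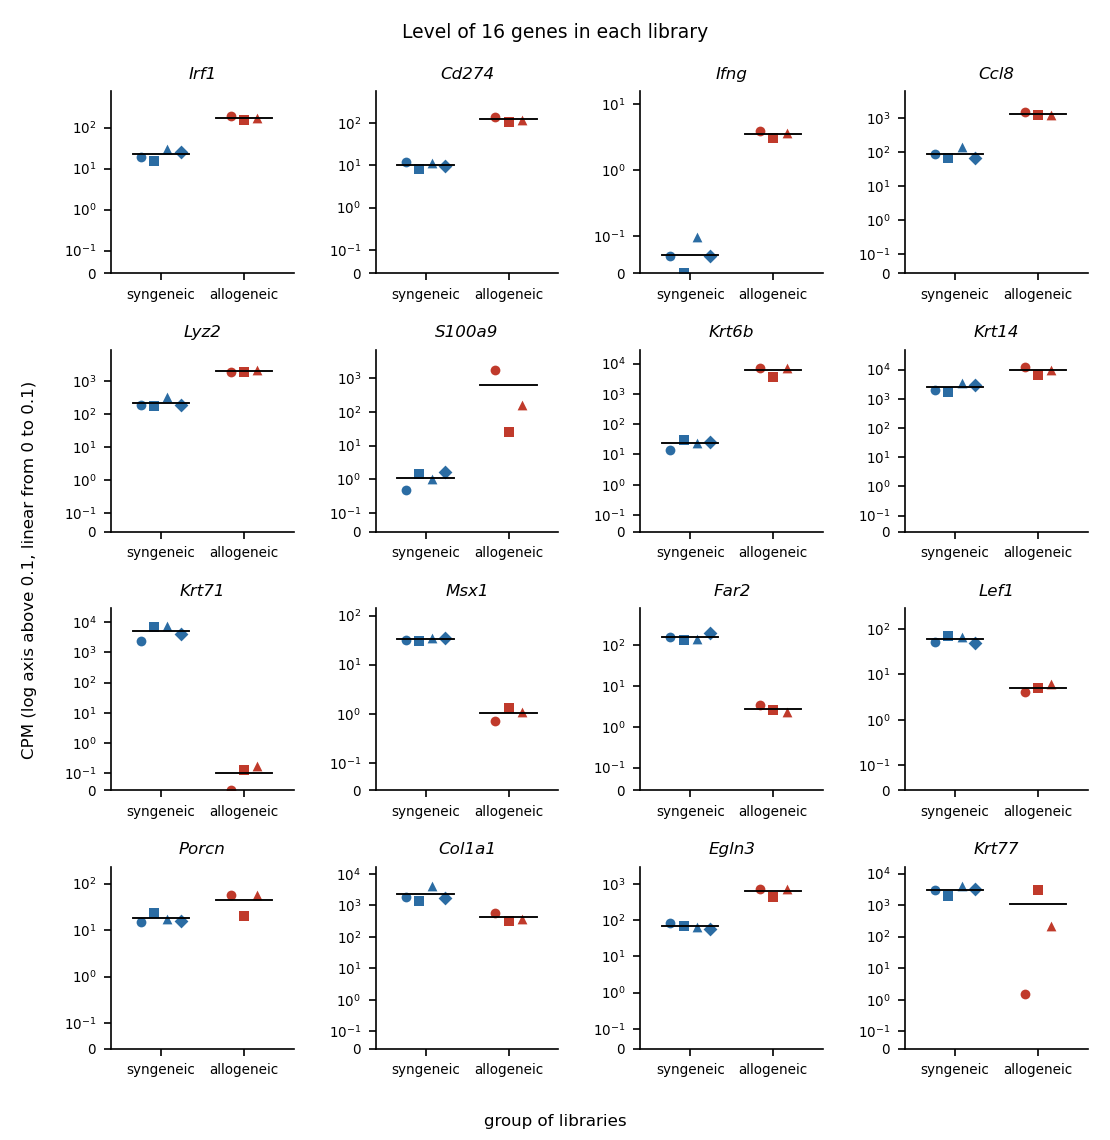
Each panel plots the CPM of 1 gene in the 4 syngeneic (blue) and 3 allogeneic (red) libraries, with a black line at the group mean; the axis is logarithmic above 0.1 CPM and linear below, and circles, squares, triangles and diamonds are libraries 1 to 4. Irf1, Cd274, Krt6b, Msx1, Far2 and Lef1 separate the groups without overlap, while S100a9 and Krt77 range widely among the 3 allogeneic libraries.

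The largest rises among genes of at least 10 CPM in allogeneic skin were mixed in kind. Gvin1, a large interferon-inducible GTPase, had no count in syngeneic skin and 70.6, 44.4 and 102 CPM in allogeneic skin, at least 500-fold higher at a floor of 3 counts per library. Several of the largest rises lie in chitinase-like, small proline-rich and stefin genes with near-identical copies, whose single values are uncertain.

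T cell genes were higher in allogeneic skin at modest absolute levels. Of the 18 genes of the T cell receptor complex and its coreceptors 16 rose (median 2.86). Cd4, the coreceptor of helper T cells, was at 1.04, 1.61, 1.19 and 0.938 CPM in syngeneic and 16.3, 12.3 and 21.9 CPM in allogeneic libraries (log2 fold change 3.81 with SE 0.31, adjusted p = 4.4e-05). Cd3g, a chain of the receptor complex, was at 1.18, 1.22, 1.39 and 3.75 CPM against 17, 11.1 and 13 CPM (log2 fold change 2.85 with SE 0.43, adjusted p = 0.0011). The constant regions Trbc1 (adjusted p = 0.42) and Trbc2 (adjusted p = 0.65) were the members not called, with log2 fold changes of 0.34 and 0.17. Trbc2 was already at 10.9, 12.8, 18.7 and 19 CPM in control skin. Of the 5 tested gamma-delta T cell genes, Tcrg-C2 (log2 fold change 5.02, 6.34 without syngeneic library 4) and Tcrg-C4 (2.63) rose while Trdc (−3.35, −4.06 without allogeneic library 1) and Sox13 fell. The call of Tcrg-C4 was lost without allogeneic library 3 (adjusted p = 0.059, edgeR). Sox13, a transcription factor that other skin cells also express, dropped from 44, 30.9, 31.2 and 35.8 CPM to 8.04, 9.56 and 10.4 CPM (log2 fold change −1.93 with SE 0.21, adjusted p = 0.00018).

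Of 14 genes of cytotoxic lymphocytes 13 were tested, and all 13 rose (median 4.44). Klrg1 did not pass the filter on low counts, with means of 0.291 CPM in syngeneic and 0.478 CPM in allogeneic skin. Members near 0 in controls, such as Fasl and Ifng (syngeneic means of 0.0246 and 0.0483 CPM), could pass it only through allogeneic skin. Their rise thus follows in part from being tested. Perforin, Prf1, which opens pores in target cells, was at 0.331, 0.39, 0.149 and 0.469 CPM in syngeneic and 10.7, 4.78 and 13.6 CPM in allogeneic libraries (log2 fold change 4.82 with SE 0.48, adjusted p = 0.00012). Gzmb, a protease that enters through those pores, was at 0.426, 0.537, 0.892 and 0.798 CPM against 18.2, 8.37 and 17.5 CPM (log2 fold change 4.46 with SE 0.39, adjusted p = 6.4e-05). The granzyme Gzmk had no count in control skin and 4.31, 2.26 and 4.01 CPM in allogeneic skin, at least 24.4-fold higher at a floor of 3 counts per library. Library 2 was the lowest diseased library for all 3 genes. Of the 15 tested costimulatory and checkpoint molecules 11 rose (median 2.32). The checkpoint receptor Pdcd1 (PD-1) was at 0.0473, 0, 0.0495 and 0.0938 CPM in syngeneic and 8.36, 4.28 and 10.5 CPM in allogeneic libraries (log2 fold change 7.14 with SE 0.59, adjusted p = 5.2e-05). Its ligand Cd274 (PD-L1), which interferon-gamma induces in many cell types, was at 11.7, 8.39, 11.6 and 9.43 CPM against 142, 108 and 121 CPM (log2 fold change 3.59 with SE 0.19, adjusted p = 8.2e-06). Neither gene had an allogeneic library inside the control range. Tigit, another inhibitory receptor, rose from 0.0947, 0.0976, 0.0991 and 0.0938 CPM to 3.01, 2.39 and 5.45 CPM (log2 fold change 5.14 with SE 0.49, adjusted p = 9.6e-05). Control values of Pdcd1 and Tigit lay below 3 counts per library, so the sizes of their ratios are uncertain. Ctla4 was not called (log2 fold change 0.57, adjusted p = 0.29).

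Macrophage genes made up a much larger share of diseased skin. The 20 markers of monocytes and macrophages together took 0.081, 0.0646, 0.11 and 0.0698% of syngeneic and 0.6, 0.432 and 0.642% of allogeneic counts (exact permutation p = 0.057), and 17 rose singly (median 2.51). Ctss, the protease that trims the class II chaperone in antigen-presenting cells, was at 55.8, 41.1, 79.4 and 65.7 CPM in syngeneic and 1076, 899 and 1277 CPM in allogeneic skin (log2 fold change 4.16 with SE 0.28, adjusted p = 2e-05). C1qb, a complement subunit made by resident macrophages, was at 34.7, 38, 86.6 and 45 CPM against 426, 450 and 421 CPM (log2 fold change 3.08 with SE 0.32, adjusted p = 0.00014). Csf1r, the receptor for the growth factor that macrophages depend on, was at 59.5, 49.4, 90 and 54 CPM against 296, 184 and 384 CPM (log2 fold change 2.19 with SE 0.29, adjusted p = 0.00054). No allogeneic library lay inside the control range for these 3 genes. Cd163, a scavenger receptor of tissue macrophages, was not called (adjusted p = 0.12): it stood at 53.4, 46.5, 64.8 and 30 CPM in syngeneic skin and at 364, 12.6 and 398 CPM in allogeneic skin, where library 2 lay below every control. Of the 8 tested Fc receptors 5 rose, among them Fcgr3 (12.5, 10.8, 20.2 and 14 CPM against 269, 118 and 200 CPM, adjusted p = 5.5e-05), which binds antibody complexes. Fcer2a, a receptor for immunoglobulin E, fell from 2.46, 1.32, 3.12 and 4.65 CPM to 0.523, 0.0629 and 0.359 CPM (log2 fold change −3.17 with SE 0.66, adjusted p = 0.0063). Of the 18 pattern recognition receptors 15 rose. Clec7a, the receptor for fungal glucans, was at 3.88, 1.9, 2.48 and 3.47 CPM in syngeneic and 102, 36.3 and 65.1 CPM in allogeneic libraries (log2 fold change 4.53 with SE 0.38, adjusted p = 6.6e-05). Of the 14 tested complement genes 10 rose, among them the receptor C3ar1 (5.63, 4.73, 8.57 and 6.05 CPM against 80.8, 51.1 and 92.5 CPM, adjusted p = 3.3e-05).

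Dendritic cell genes split. Of 14 tested markers Itgax, Batf3 and Clec10a rose and Flt3, Cd209a and Siglech fell. The log2 fold change of Itgax went from 2.40 to 1.77 without allogeneic library 3. Cd209a, a lectin of dermal dendritic cells, fell from 14.3, 10.3, 17.4 and 11.7 CPM to 1.37, 3.71 and 3.41 CPM (log2 fold change −2.24 with SE 0.37, adjusted p = 0.0018), and Clec10a, a galactose-binding lectin, rose from 19.2, 18.2, 45.9 and 14.1 CPM to 303, 85.9 and 331 CPM (log2 fold change 3.30 with SE 0.58, adjusted p = 0.0048). Cd207 (langerin), the defining gene of Langerhans cells, was at 15.3, 9.02, 13.1 and 7.98 CPM in syngeneic skin and at 0.131, 7.42 and 0.12 CPM in allogeneic skin, so libraries 1 and 3 were close to 0 and library 2 was near the controls (adjusted p = 0.25). Without library 2 its log2 fold change went from −2.15 to −6.43.

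Of 7 tested neutrophil markers 6 rose, against 3 in limma-voom, and they reached different levels in the 3 diseased libraries. Il1r2, a decoy receptor of interleukin-1, was not called (log2 fold change −0.50, adjusted p = 0.59). Without allogeneic library 1 the log2 fold change of Il1r2 was −1.57. Ly6g and Mmp8 did not pass the filter on low counts and were not tested, though neither was low in every diseased library. Mmp8 was at 0, 0, 0.0495 and 0 CPM in syngeneic and 41.2, 0.377 and 8.38 CPM in allogeneic libraries. Ly6g was at 0.0947, 0, 0 and 0.0938 CPM against 7.32, 0.0629 and 0.12 CPM. All 9 markers together took 0.00525, 0.00414, 0.00822 and 0.00504% of syngeneic counts and 0.399, 0.0134 and 0.0646% of allogeneic counts. The calprotectin subunit S100a9 was at 0.473, 1.46, 0.991 and 1.6 CPM in syngeneic and 1752, 25.1 and 166 CPM in allogeneic libraries (log2 fold change 9.15 with SE 1.67, adjusted p = 0.0089). Cxcr2, the receptor through which neutrophils follow chemokines and which keratinocytes can also express, was level at 33.1, 36 and 41 CPM in the diseased libraries against 0.616, 0.683, 0.297 and 1.08 CPM in controls (log2 fold change 5.76 with SE 0.35, adjusted p = 1.2e-05). Library 1 was far above the others for S100a9 and the lowest of the 3 for Cxcr2. Without allogeneic library 1 the log2 ratio of the summed neutrophil shares moved from 4.81 to 2.78 and the log2 fold change of S100a9 to 6.40. The call of S100a9 was lost in limma-voom (adjusted p = 0.07).

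**Figure D3:**
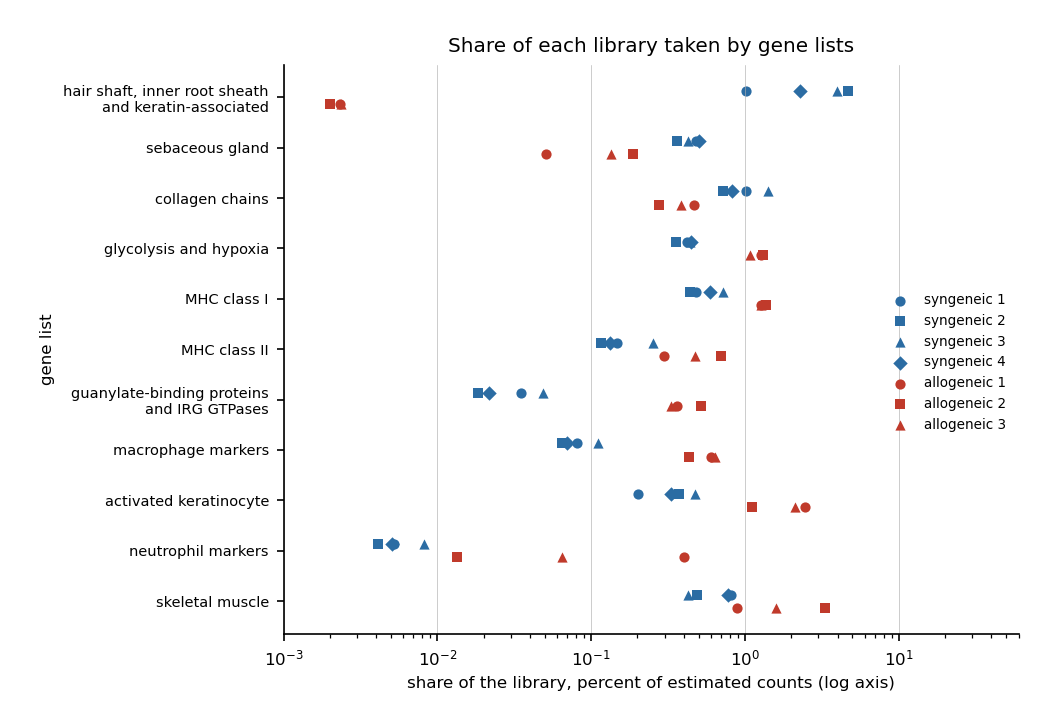
The share of all estimated counts, in percent on a log axis, that 11 gene lists took in each of the 4 syngeneic (blue) and 3 allogeneic (red) libraries. Hair genes fall from between 1.01% and 4.67% to 0.00235% at most, macrophage and keratinocyte activation genes move the other way, and neutrophil and muscle genes spread widely among the allogeneic libraries.

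Signals that call leukocytes rose broadly. Of 19 tested CC chemokines 13 rose and 1 fell (median 2.65). Ccl8, which attracts monocytes and T helper 2 cells, was at 88.8, 67.8, 139 and 66.3 CPM in syngeneic and 1556, 1259 and 1278 CPM in allogeneic skin (log2 fold change 3.91 with SE 0.32, adjusted p = 4.6e-05). Ccl6, a rodent chemokine of myeloid cells, was at 26.8, 25.2, 32.7 and 29.4 CPM against 506, 331 and 392 CPM (log2 fold change 3.84 with SE 0.21, adjusted p = 8.6e-06). Ccl19, which guides cells that carry the receptor CCR7 into lymphoid tissue, was the one that fell, from 5.07, 2.54, 11.4 and 6.1 CPM to 0.523, 1.01 and 0.659 CPM (log2 fold change −3.09 with SE 0.55, adjusted p = 0.0027). Among the 9 CXC and CX3C chemokines 5 rose and 1 fell. Cxcl9, a ligand of the T cell receptor CXCR3 and a classic interferon-gamma target, was at 3.74, 2.83, 8.97 and 3.66 CPM against 726, 277 and 382 CPM (log2 fold change 6.59 with SE 0.53, adjusted p = 7.8e-05). Cxcl14, a chemokine of resting epithelium, fell from 102, 216, 206 and 180 CPM to 52.1, 71.7 and 76.4 CPM (log2 fold change −1.40 with SE 0.28, adjusted p = 0.0047). Of 17 tested chemokine receptors 10 rose, and Ackr4, a scavenger of chemokines, fell from 29.6, 24.1, 34.7 and 23.8 CPM to 3.4, 10.6 and 3.71 CPM (log2 fold change −2.25 with SE 0.40, adjusted p = 0.003, and −2.98 on the log2 scale without allogeneic library 2).

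Of 25 tested cytokines 18 rose (median 3.0). The interleukin-36 genes of keratinocytes, Il1f6, Il1f8 and Il1f9, all rose. Il1f6 had a log2 fold change of 4.57, and of 5.32 without syngeneic library 4. Il1f9 (interleukin-36 gamma) was at 16.7, 14.2, 15.9 and 30.9 CPM in syngeneic and 170, 120 and 176 CPM in allogeneic libraries (log2 fold change 3.00 with SE 0.29, adjusted p = 0.0001). Tnfsf10 (TRAIL), a death ligand that interferons induce, was at 6.87, 4.54, 7.48 and 4.97 CPM against 39.5, 56 and 51.5 CPM (log2 fold change 3.04 with SE 0.24, adjusted p = 3.8e-05). Tnf itself was not called (adjusted p = 0.053), at 3.03, 2.34, 1.93 and 1.03 CPM in controls and 112, 3.52 and 6.17 CPM in allogeneic skin, where library 1 alone was far above the rest. Without library 1 its log2 fold change went from 4.27 to 1.22. All 11 leukocyte adhesion genes rose, and Vcam1, the endothelial partner of lymphocyte integrins, was at 4.36, 2.83, 4.9 and 3.19 CPM against 136, 62.8 and 126 CPM (log2 fold change 4.82 with SE 0.32, adjusted p = 1.8e-05). Of 19 cell death genes 13 rose, among them Gsdmd, the pore protein of pyroptosis (13.2, 7.27, 19.6 and 12.2 CPM against 48, 36.3 and 42.7 CPM, log2 fold change 1.69 with SE 0.29, adjusted p = 0.0022), while the mitochondrial Bax (adjusted p = 0.35) and Bcl2 (adjusted p = 0.5) were not called, at log2 fold changes of −0.33 and −0.23.

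Most, but not all, markers of wounded or thickened epidermis were higher in diseased skin. Of 16 tested genes of activated keratinocytes 12 rose (median 5.63), and the list took 0.203, 0.371, 0.471 and 0.33% of syngeneic and 2.44, 1.11 and 2.11% of allogeneic counts (exact permutation p = 0.057). Krt6b, a keratin of wound edges, was at 14, 29.4, 23.6 and 26.2 CPM in syngeneic and 7242, 3684 and 6992 CPM in allogeneic libraries (log2 fold change 8.00 with SE 0.46, adjusted p = 1e-05). Its partner Krt16 was at 12.8, 42.2, 48.1 and 24.5 CPM against 4471, 3300 and 5293 CPM (log2 fold change 7.09 with SE 0.53, adjusted p = 3.1e-05). Stfa3, a cysteine protease inhibitor of stressed keratinocytes and myeloid cells with near-identical copies, was at 4.02, 4.73, 4.76 and 6.66 CPM against 2244, 796 and 1273 CPM (log2 fold change 8.15 with SE 0.44, adjusted p = 8.2e-06). Allogeneic library 2 was the lowest diseased library for all of them and still far above the controls. Krt17, which hair follicles also make, was not called (log2 fold change −0.47, adjusted p = 0.39).

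Keratins of the resting epidermis did not move together. Krt14 of the basal layer rose from 2037, 1716, 3535 and 3093 CPM to 12046, 6768 and 9494 CPM (log2 fold change 1.86 with SE 0.39, adjusted p = 0.0061), while its partner Krt5 was not called (log2 fold change 0.54, adjusted p = 0.25). Krt15, a keratin of basal and follicle stem cells, fell from 922, 1064, 2516 and 1338 CPM to 69, 170 and 128 CPM (log2 fold change −3.58 with SE 0.48, adjusted p = 0.00055). Krt77, a keratin of sweat ducts and of upper epidermis, was at 2982, 1875, 4102 and 3183 CPM in controls and at 1.5, 2918 and 212 CPM in the diseased libraries, so library 1 was close to 0 and library 2 inside the control range, and it was not called (adjusted p = 0.57). Its log2 fold change of −1.54 became −4.83 without allogeneic library 2 and −0.95 without allogeneic library 1. Of 20 cornified envelope genes 7 rose, and 11 did in DESeq2. Lce3a, a late cornified envelope protein tied to barrier repair, was at 0.142, 0.146, 0.248 and 0 CPM against 15.3, 7.36 and 12.1 CPM (log2 fold change 6.38 with SE 0.58, adjusted p = 7.3e-05), and Rptn (repetin) at 19.4, 29.8, 23.3 and 23.5 CPM against 896, 229 and 1002 CPM (log2 fold change 4.89 with SE 0.48, adjusted p = 0.00016). Loricrin, Lor, the most abundant envelope protein, was not called (log2 fold change 0.42, adjusted p = 0.63). Of 18 enzymes of the lipid barrier 8 rose, and Sdr9c7, which acts on the omega-hydroxyceramides of the barrier, was at 38.5, 37.1, 31.6 and 46.2 CPM in syngeneic and 166, 138 and 196 CPM in allogeneic skin (log2 fold change 2.12 with SE 0.19, adjusted p = 7.2e-05).

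Among genes of at least 10 CPM in controls, the largest falls were nearly all of keratins and keratin-associated proteins of the hair. Keratin-associated proteins, hair shaft keratins and inner root sheath genes, 82 in all, together took 1.01, 4.67, 3.94 and 2.29% of the counts in syngeneic libraries 1 to 4 and 0.00234, 0.002 and 0.00235% in allogeneic libraries 1 to 3 (exact permutation p = 0.057). All 9 inner root sheath genes, 13 of 14 hair shaft keratins and 39 of 55 tested keratin-associated protein genes fell. Krt71, the type II keratin of the inner root sheath that curls or straightens the hair, was at 2441, 6860, 7198 and 3979 CPM in syngeneic and 0, 0.126 and 0.18 CPM in allogeneic libraries (adjusted p = 1e-05). Trichohyalin, Tchh, which hardens the sheath, was at 2150, 8669, 7267 and 3570 CPM against 19.3, 8.05 and 17.7 CPM (log2 fold change −8.49 with SE 0.75, adjusted p = 6.7e-05). Krt34, a cortex keratin, was at 26.5, 750, 683 and 306 CPM in controls and at 0 in all 3 diseased libraries, at least 2345-fold lower at a floor of 3 counts per library (adjusted p = 0.018). Its call was lost in limma-voom (adjusted p = 0.067) and in edgeR without a filter on low counts (adjusted p = 0.071). Syngeneic library 1 was the lowest control for Krt71, Tchh and Krt34 and still lay above every diseased library for these 3 genes. The groups did not overlap for 48 of the 55 tested keratin-associated protein genes and 13 of the 14 hair shaft keratins. The count of keratin-associated proteins called depended on the libraries: it was 21 without syngeneic library 2, 24 without syngeneic library 4, 23 without allogeneic library 1 and 21 without allogeneic library 2. With all libraries it was 1 in limma-voom and 7 in edgeR without a filter on low counts, and the count of hair shaft keratins was 7 and 8 in the same fits. Of the 55 genes, 47 had no count in one of the groups. Near-identical copies in this family make the value of any single member uncertain. With genes at 0 set to that floor, the median log2 fold change was −8.90 for keratin-associated proteins, −11.19 for hair shaft keratins and −10.57 for inner root sheath genes.

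Regulators of the follicle fell as well. Hair growth is driven by Wnt, Hedgehog and BMP signals between the dermal papilla and the matrix cells above it. Of 11 transcription factors of the hair matrix 9 fell, and Msx1 was at 32.2, 29.8, 34.4 and 35.2 CPM in syngeneic and 0.719, 1.32 and 1.08 CPM in allogeneic libraries (log2 fold change −4.97 with SE 0.26, adjusted p = 8.2e-06). Hoxc13, the regulator of hair keratin genes, was at 79.6, 155, 103 and 114 CPM against 0.915, 4.21 and 4.73 CPM (log2 fold change −5.09 with SE 0.55, adjusted p = 0.00035). Of 12 Hedgehog genes 9 fell. The ligand Shh was at 31.9, 18, 23.7 and 18.5 CPM in controls and 0, 0 and 0.0599 CPM in diseased skin, where it had 1 count in all, in library 3, so its ratio of 1103 has a 95% counting interval of 198 to 43612. The target gene Gli1, which the pathway switches on, was at 130, 85.7, 78 and 86.4 CPM against 6.27, 11.1 and 9.88 CPM (log2 fold change −3.39 with SE 0.28, adjusted p = 5.2e-05), and every diseased library lay below every control. Of 11 bulge stem cell genes 10 fell. Sox9, which hair follicle stem cells require, was at 102, 99.9, 104 and 107 CPM against 15.3, 17.9 and 19.5 CPM (log2 fold change −2.55 with SE 0.17, adjusted p = 1.8e-05). Foxc1 had a log2 fold change of −3.51 (adjusted p = 4.9e-05), and Nfatc1, a factor of quiescent bulge cells, was not called (log2 fold change 0.07, adjusted p = 0.79). Of 18 BMP and FGF genes 9 fell, including Fgf5, which ends the growth phase of hair (4.26, 8.93, 5.15 and 8.54 CPM against 0.457, 0.566 and 0.299 CPM, log2 fold change −3.91 with SE 0.44, adjusted p = 0.00024). Of 13 pigment genes 11 fell, and Slc45a2, a melanosome transporter, was at 4.92, 4.15, 4.06 and 4.08 CPM against 0.261, 0.566 and 0.24 CPM (log2 fold change −3.57 with SE 0.42, adjusted p = 0.00029). Sox10, which pigment cells share with Schwann cells, was not called (log2 fold change 0.60, adjusted p = 0.14).

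Sebaceous gland genes were lower too. Of 12 tested members 8 fell (median −3.93). Far2, which makes fatty alcohols, was at 157, 136, 146 and 202 CPM in syngeneic and 3.46, 2.58 and 2.34 CPM in allogeneic libraries (log2 fold change −5.84 with SE 0.26, adjusted p = 8.2e-06), and Awat2, which joins them into wax esters, at 56.9, 21.1, 28.8 and 24.9 CPM against 0.196, 0.377 and 0.299 CPM (log2 fold change −6.78 with SE 0.50, adjusted p = 3e-05). Mc5r, the melanocortin receptor of sebocytes, was at 31, 44.6, 30.8 and 43.3 CPM against 1.96, 4.91 and 2.04 CPM (log2 fold change −3.65 with SE 0.37, adjusted p = 0.00013). Scd1, a desaturase of sebocytes and fat cells, was not called: it was at 2318, 1638, 1715 and 2405 CPM in controls and 178, 1595 and 811 CPM in allogeneic skin, where library 2 lay near the control range (adjusted p = 0.16). Its log2 fold change went from −1.23 to −2.03 without library 2. Fads2, the first desaturase of polyunsaturated fatty acids and an enzyme of sebum, was at 65.3, 77.3, 93.8 and 77.5 CPM against 4.97, 6.23 and 6.65 CPM (log2 fold change −3.72 with SE 0.21, adjusted p = 1e-05). Of 16 fatty acid synthesis genes 5 fell, and 8 did without allogeneic library 2. Fasn, the synthase itself, was not called (log2 fold change −0.88, adjusted p = 0.13). Of 23 cholesterol synthesis genes 9 fell (5 without allogeneic library 1). Of 12 white fat genes 4 fell, 7 did without allogeneic library 2, and the fat hormone Adipoq was not called (log2 fold change −0.66, adjusted p = 0.28, and −1.29 on the log2 scale without allogeneic library 2).

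Wnt signalling was of interest because the study treats this disease with an inhibitor of porcupine, the enzyme encoded by Porcn that attaches the lipid Wnt proteins need for secretion. Wnt proteins bind Frizzled receptors and LRP coreceptors, stabilise beta-catenin and switch on targets such as Lef1 and Axin2. In the diseased skin given vehicle most of the target genes were lower. Of 13 beta-catenin targets 11 fell in edgeR, 11 did in DESeq2 and in limma-voom, and 12 had an unadjusted p under 0.05 with a fall (median −1.48). Lef1, the DNA-binding partner of beta-catenin and a gene of hair matrix cells, was at 52.9, 71.7, 68.3 and 48.7 CPM in syngeneic and 4.18, 5.03 and 5.99 CPM in allogeneic libraries (log2 fold change −3.57 with SE 0.24, adjusted p = 1.8e-05). Nkd2, a feedback inhibitor, was at 83, 143, 114 and 87.1 CPM against 15.1, 20.9 and 20.3 CPM (log2 fold change −2.51 with SE 0.25, adjusted p = 0.00012). Axin2 was at 67.9, 63.4, 46.6 and 61.3 CPM against 21.7, 40.8 and 37.9 CPM (log2 fold change −0.84 with SE 0.24, adjusted p = 0.029), and the groups did not overlap. Its call was lost when all mapped libraries were fitted together (adjusted p = 0.16) and without syngeneic library 1, 2 or 4 or allogeneic library 1 or 3 (adjusted p = 0.057 to 0.072, edgeR). Of 14 tested ligands 6 fell. Wnt11 was at 31.6, 53.2, 51 and 43.7 CPM against 2.16, 1.64 and 2.04 CPM (log2 fold change −4.52 with SE 0.27, adjusted p = 1.1e-05) and Wnt10b, a ligand of the growing follicle, at 41.2, 48, 33.3 and 36.6 CPM against 1.7, 5.09 and 3.71 CPM (log2 fold change −3.50 with SE 0.35, adjusted p = 0.00013). Wnt10a, made in the epidermis, was not called (log2 fold change 0.34, adjusted p = 0.27). Of 17 genes of reception and secretion 10 fell, with Fzd1 at 174, 193, 133 and 171 CPM against 43.7, 41.5 and 55.3 CPM (log2 fold change −1.84 with SE 0.20, adjusted p = 0.00018), and the coreceptors Lrp5 (adjusted p = 0.72) and Lrp6 (adjusted p = 0.74) were not called, at log2 fold changes of −0.09 and −0.12.

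Porcn was the 1 gene of that list that rose. It was at 15.2, 22.9, 17.4 and 15.9 CPM in syngeneic and 55.7, 19.8 and 57.5 CPM in allogeneic libraries (log2 fold change 1.31 with SE 0.34, adjusted p = 0.018), with allogeneic library 2 inside the control range. The call was lost without syngeneic library 4 or allogeneic library 1 or 3 (adjusted p = 0.051, 0.059 and 0.08, edgeR). Among the 16 secreted antagonists and R-spondins 8 fell and Sfrp5 rose. Rspo2, an amplifier of Wnt signals in the dermal papilla, was at 2.37, 3.37, 2.58 and 2.06 CPM in controls and at 0 in all diseased libraries, at least 13.8-fold lower. The antagonist Wif1 fell as well, from 39.6, 35.4, 46.5 and 44.2 CPM to 4.44, 14 and 7.19 CPM (log2 fold change −2.27 with SE 0.35, adjusted p = 0.0013). None of the 7 beta-catenin target genes with a RefSeq promoter held the TCF/LEF motif CTTTGAT in the same window, against 3.15% of all matched genes. This says only that these letters are not in this window. Rock1 and Rock2 encode kinases of the cytoskeleton, and belumosudil, another drug of the study, inhibits the second. Neither was called. Rock2 was at 149, 150, 97.3 and 121 CPM against 126, 130 and 125 CPM (log2 fold change −0.03 with SE 0.19, adjusted p = 0.94) and Rock1 had a log2 fold change of 0.20 (adjusted p = 0.57).

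Most matrix genes were lower or not called in this model, which is named for its hardened skin. Of 39 tested collagen chains 14 fell, 3 rose and 22 were not called (median −0.76), and 9 fell and 2 rose without allogeneic library 3. Col1a1, the main chain of dermal collagen, was at 1787, 1335, 4175 and 1706 CPM in syngeneic and 578, 319 and 354 CPM in allogeneic libraries (log2 fold change −2.43 with SE 0.46, adjusted p = 0.0038). Syngeneic library 3 was the highest, and every control lay above every diseased library. Col15a1, a collagen of vessel and muscle basement membranes, was at 107, 96.9, 171 and 100 CPM against 32, 25.3 and 35 CPM (log2 fold change −1.95 with SE 0.25, adjusted p = 0.00045). Enzymes that modify or cross-link collagen were mixed: of 18, 6 rose and 3 fell. P4ha3, a prolyl hydroxylase subunit, was at 0.426, 0.244, 0.297 and 0 CPM against 8.82, 7.86 and 8.68 CPM (log2 fold change 5.09 with SE 0.60, adjusted p = 0.0003). Lox, the lysyl oxidase that cross-links collagen and elastin, rose from 33.4, 27.4, 26.3 and 21.6 CPM to 122, 58.4 and 85.2 CPM (log2 fold change 1.70 with SE 0.26, adjusted p = 0.0011), while Pcolce2, an enhancer of procollagen processing, fell from 30.8, 17.8, 44.3 and 26 CPM to 4.18, 5.79 and 4.13 CPM (log2 fold change −2.66 with SE 0.33, adjusted p = 0.00038). Of 16 elastic fibre genes 6 fell, and Mfap4 was at 96.8, 61.1, 134 and 60.7 CPM against 9.48, 12.8 and 6.71 CPM (log2 fold change −3.19 with SE 0.36, adjusted p = 0.00027).

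Matricellular proteins sit in the matrix and signal to cells rather than bear load. Of 16 tested members 7 rose and 2 fell. Tenascin C, Tnc, which appears in healing wounds, was at 42.6, 72, 56.8 and 46.6 CPM in syngeneic and 308, 134 and 257 CPM in allogeneic libraries (log2 fold change 2.10 with SE 0.29, adjusted p = 0.00073), and Thbs1, an activator of latent TGF-beta, at 84.5, 92, 66.6 and 64.3 CPM against 336, 214 and 318 CPM (log2 fold change 1.91 with SE 0.22, adjusted p = 0.00027). Mmp12, the elastase of macrophages, was at 3.93, 2.29, 2.13 and 1.83 CPM against 253, 41.2 and 311 CPM (log2 fold change 6.30 with SE 0.73, adjusted p = 0.00091), with library 2 the lowest of the diseased ones. Tgfb1, the ligand most tied to fibrosis, rose from 32.9, 27.7, 42 and 38.4 CPM to 92.5, 63 and 80.6 CPM (log2 fold change 1.16 with SE 0.20, adjusted p = 0.0024), whereas its direct target Ccn2 (log2 fold change 0.15, adjusted p = 0.71) and the inhibitory Smad7 (log2 fold change −0.75, adjusted p = 0.075) were not called. Acta2, the actin of myofibroblasts and smooth muscle, was at 130, 215, 353 and 269 CPM against 138, 197 and 196 CPM, with overlapping groups (log2 fold change −0.45 with SE 0.31, adjusted p = 0.33). Of the fibroblast identity genes, Pdgfra was not called (log2 fold change 0.04, adjusted p = 0.96), and Fap, a protease of activated fibroblasts, fell from 17.8, 21.6, 19.5 and 20.2 CPM to 6.53, 7.17 and 5.33 CPM (log2 fold change −1.64 with SE 0.21, adjusted p = 0.0004).

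Genes of vessels and of skeletal muscle were higher. Of 12 blood vessel markers 9 rose, and Pecam1 was at 37.8, 33.7, 43 and 33.3 CPM in syngeneic and 108, 82.8 and 133 CPM in allogeneic libraries (log2 fold change 1.55 with SE 0.20, adjusted p = 0.00044). Of 5 lymphatic markers 4 rose, with the receptor Flt4 at 8.24, 8.59, 8.03 and 9.15 CPM against 25.9, 19 and 33.1 CPM (log2 fold change 1.61 with SE 0.22, adjusted p = 0.00061). Of 14 skeletal muscle genes 8 rose (4 without a filter on low counts), and the list took 0.811, 0.485, 0.427 and 0.78% of syngeneic and 0.891, 3.3 and 1.58% of allogeneic counts. Allogeneic library 2 held the most and library 1 lay just above the highest control. Leaving out syngeneic library 2, 3 or 4 or allogeneic library 2 brought the number of muscle genes called to 3, 5, 5 and 4. Muscle under the skin can be taken with a sample, and the part of its amount in other results was not tested.

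Glycolysis and hypoxia genes rose without exception in the test: 21 of 21 were called higher (median 1.7). They took 0.417, 0.354, 0.438 and 0.447% of syngeneic and 1.27, 1.31 and 1.08% of allogeneic counts (exact permutation p = 0.057). Hk2, the inducible hexokinase that traps glucose in the cell, was at 55.4, 44.7, 42.8 and 44 CPM in syngeneic and 215, 235 and 273 CPM in allogeneic libraries (log2 fold change 2.37 with SE 0.18, adjusted p = 3e-05). Egln3, an oxygen sensor that hypoxia-inducible factor itself induces, was at 86, 68.2, 63.3 and 55.7 CPM against 716, 442 and 750 CPM (log2 fold change 3.22 with SE 0.26, adjusted p = 4.3e-05). Slc16a3, the exporter of lactate, was at 19.8, 11.8, 13.1 and 13.1 CPM against 229, 94.1 and 129 CPM (log2 fold change 3.38 with SE 0.32, adjusted p = 9.6e-05). Aldoa, which muscle also makes in quantity, was highest in allogeneic library 2 (2039, 5961 and 2559 CPM, against 1016, 901, 1178 and 1294 CPM in controls; log2 fold change 1.68, 1.07 without that library), whereas Hk2, Egln3 and Slc16a3 were not led by that library. None of the 34 tested subunits of respiratory complex I was called in edgeR at an adjusted p under 0.05 (median log2 fold change 0.1). At an unadjusted p under 0.05 there were 2, both higher, and DESeq2 called 2 higher and limma-voom none.

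Cell division genes were not higher. Of 19 tested members 8 fell in edgeR and 9 in DESeq2 and in limma-voom (median −0.67). No member was called higher by these 3 tools or at an unadjusted p under 0.05 in edgeR, against 12 lower at that p. Mki67, the standard proliferation marker, was at 410, 291, 255 and 241 CPM in syngeneic and 214, 86.6 and 141 CPM in allogeneic libraries (log2 fold change −1.02 with SE 0.32, adjusted p = 0.038). The call of Mki67 was lost without any one of syngeneic libraries 1 to 4 and without allogeneic library 2 or 3 (adjusted p = 0.052 to 0.12). The count of genes that fell was 2 without syngeneic library 1, 4 or allogeneic library 3, 3 without syngeneic library 3, 4 without syngeneic library 2 and 13 without allogeneic library 1. Of 76 cytosolic ribosomal protein genes 69 were not called, 5 rose and 2 fell, in a family with many near-identical copies. Without syngeneic library 2 the counts were 3 and 0, and without syngeneic library 4 or allogeneic library 2 they were 4 and 0. Targets of the aryl hydrocarbon receptor and of the factor NRF2 went both ways: of 11 tested, 3 rose and 2 fell (median −0.1). Cyp1a1, the classic target of the receptor, fell from 9.9, 10.4, 17.1 and 11.1 CPM to 0.0653, 0.629 and 0.599 CPM (log2 fold change −4.78 with SE 0.54, adjusted p = 0.00023).

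**Figure D4:**
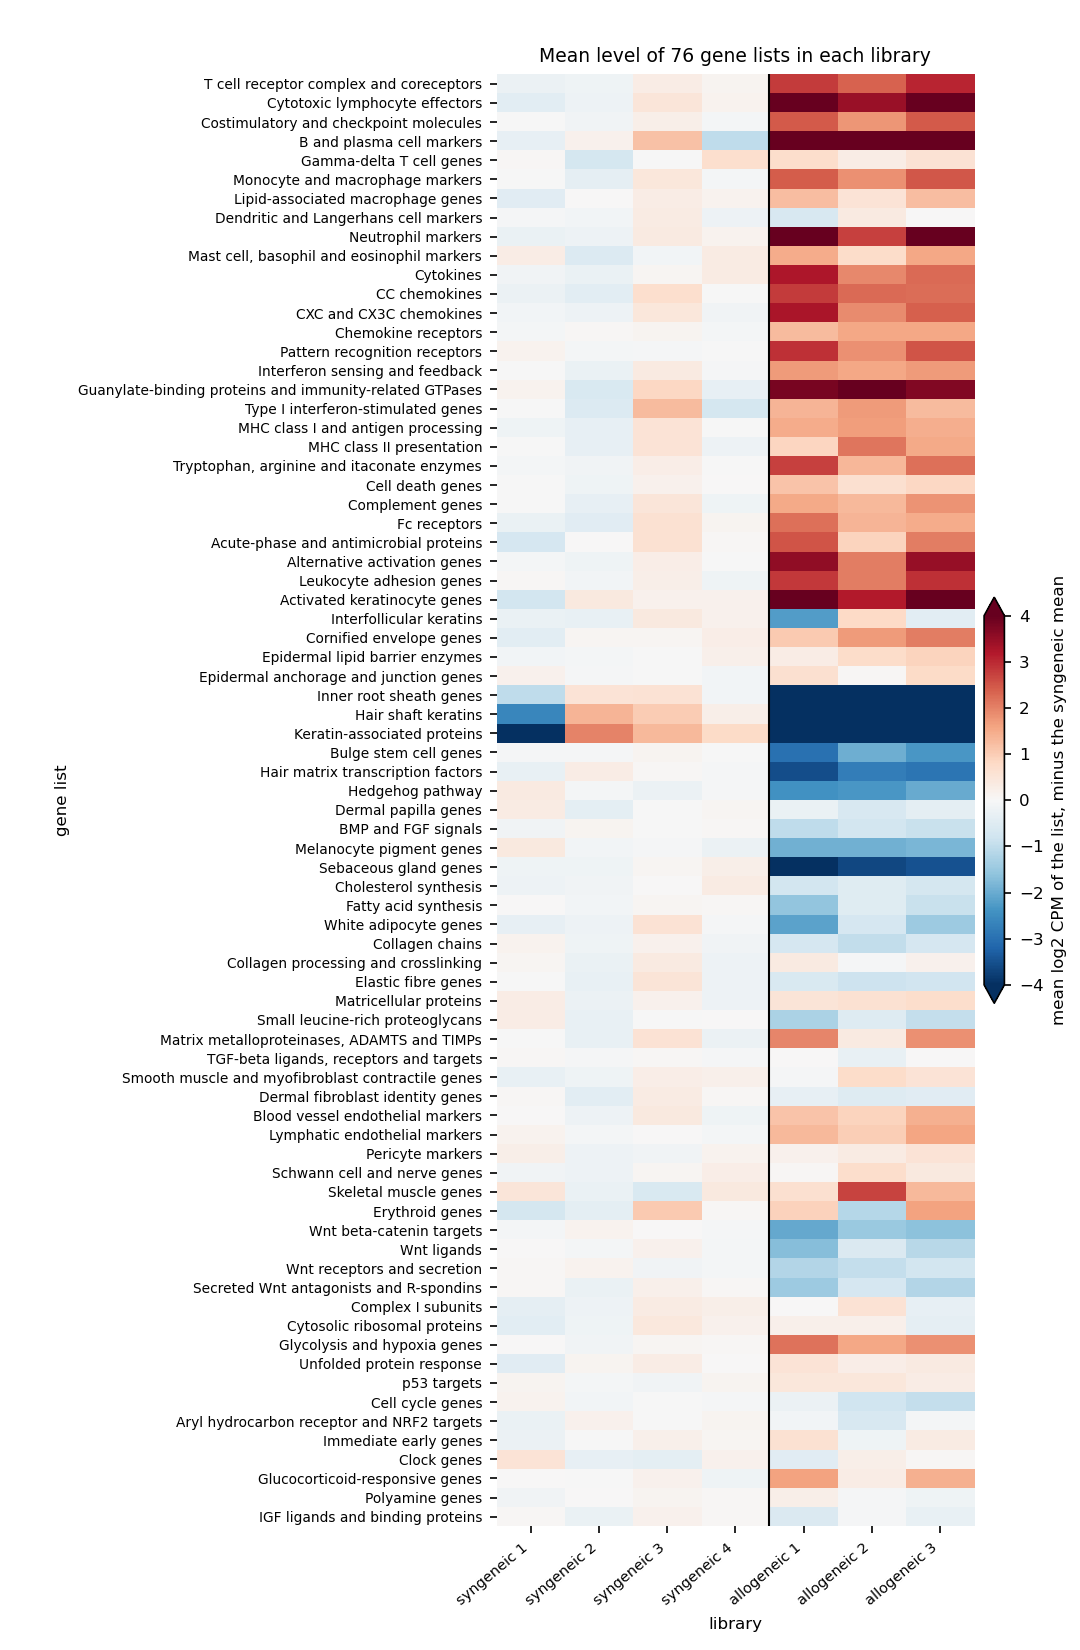
The mean log2 CPM of each of 76 gene lists in each library, minus the mean of the 4 syngeneic libraries, on a colour scale that ends at −4 and 4. Most immune lists and the activated keratinocyte list are red, and hair shaft, sebaceous and Wnt target lists blue, in all 3 allogeneic libraries, while syngeneic library 1 is low for hair shaft genes and allogeneic library 2 is high for muscle genes.

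The 3 diseased libraries were not interchangeable. Allogeneic library 2 was the lowest of the 3 for 1426 of the 2493 genes called higher, library 1 for 729 and library 3 for 338. For genes called lower, library 2 was the highest of the 3 for 852, library 1 for 809 and library 3 for 703. Library 2 lay inside the control range for 109 called genes, library 1 for 58 and library 3 for 17. Retnla, a product of alternatively activated macrophages, was at 24.9, 12, 41 and 22 CPM in controls and 3.01, 214 and 8.98 CPM in the diseased libraries, and Arg1, often grouped with it, at 17.6, 27.9, 21.7 and 24.8 CPM against 297, 6.73 and 117 CPM. Library 2 was thus highest for Retnla and lowest for Arg1, and neither gene was called (adjusted p = 0.43 and 0.11). The log2 fold change of Retnla turned from 1.59 to −2.05 without library 2, and that of Arg1 went from 2.61 to 1.43 without library 1. No label gives the site of the skin sample, the severity of disease or a batch for any library, and the part of these in the spread was not tested.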

How the data were processed

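The authors deposited estimated counts per gene for skin libraries. Per the submitters' processing notes, reads were handled with FastQC, Trim Galore, HISAT2 and featureCounts on GRCm39; versions, strand setting and annotation are not given in the sources used here. Between 31.1 and 34.4% of nonzero values were not whole, and all were rounded. Of 56059 genes, 51276 (91.5%) matched a symbol. The names of 4 columns carry a code that no label spells out, so these columns were not assigned to samples and not used. The 7 vehicle libraries were compared with edgeR 4.0.16 (quasi-likelihood, robust, TMM, filterByExpr, adjusted p under 0.05) in R 4.3.3, without covariates. CPM use TMM library sizes. Alternatives used DESeq2 1.42.0, limma 3.58.1, other scalings and filters, and each library left out. The test was checked on simulated counts. Shares of a library were compared by an exact two-sided permutation test. Intervals and floors cover counting error only. Promoters were searched with string patterns.

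The comparison and the gene lists were chosen with earlier results of these data known. The naming rule took the 20 largest rises and falls among called genes of at least 10 CPM without overlap, up to 4 called members of each list in order of adjusted p, and a few fixed genes. Genes named outside it were chosen after their values were seen: Ackr4, Adipoq, Aldoa, Arg1, Bax, Bcl2, C1qb, Ccl19, Ccn2, Cd163, Cd207, Cd3g, Csf1r, Ctla4, Cxcl14, Fasn, Fcer2a, Flt3, Gbp5, Gsdmd, Gzmk, H2-Aa, H2-D1, Hoxc13, Ifit3, Ifnar1, Ifngr1, Igtp, Il1f6, Il1r2, Irf7, Irgm1, Jak1, Krt17, Krt5, Krt77, Lor, Lrp5, Lrp6, Mc5r, Mki67, Mx1, Nfatc1, Pdgfra, Retnla, Sfrp5, Siglech, Smad7, Sox10, Tchh, Tnf, Trbc1, Trbc2 and Wnt10a.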

Additional observations from a re-analysis of the deposited data

Results flagged for a closer look

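Of 79 summed list shares, 6 had 1 syngeneic library apart from the other 3, with a gap to the nearest library, relative to the group's range, above the critical value of Dixon's test for 4 libraries. Chance gives this in about 1 of 20 groups. Groups of 3 were not examined in this way. Syngeneic library 3 held 0.0465% of its counts in dendritic and Langerhans cell markers, against 0.0321 to 0.0328% in the other controls. The same library held 0.258% in white adipocyte genes, against 0.133 to 0.154%. Syngeneic library 1 held 0.0319% in dermal papilla genes, against 0.0153 to 0.0165%, and 0.174% in cell cycle genes, against 0.126 to 0.129%. Syngeneic library 4 held 0.186% in enzymes of the epidermal lipid barrier, against 0.155 to 0.16%. Syngeneic library 2 was the low one for insulin-like growth factors and their binding proteins, with 0.101% against 0.128 to 0.131%.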

How the results depend on the processing

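With a replicate block, the number of genes called fell to 2968, of which 1594 were higher and 1374 lower. No label says that the replicate numbers pair the libraries. Same-numbered libraries of both groups correlated at −0.04, −0.14 and 0.01 in their deviations from the group means. So few pairs cannot exclude a pairing, because spread within a group could hide it. Over the other alternatives, which were RLE and upper quartile scaling, no filter and a stricter filter on low counts, DESeq2, limma-voom and all mapped libraries in 1 edgeR fit, the number called lay between 3836 and 5771. Leaving out 1 library gave 3458 (without allogeneic library 3) to 4794 (without allogeneic library 2) genes called, and 2975 to 3789 genes changed by at least 2-fold. The share of higher genes among those called moved by under 10 percentage points with either scaling. Of the log2 ratios of summed shares, that of glycolysis and hypoxia genes went from 1.56 to 1.77 when CPM replaced the total count as the denominator. That of neutrophil markers ranged from 2.78 to 5.36 when 1 library was left out, around 4.81 with all. Of 120 called genes named in the report or among the other observations, 110 stayed called under every alternative in which they were tested. None changed sign, and 8 lost the call with the block. Of the 33 named genes that were not called, 13 were called under at least 1 alternative, among them Arg1, Cd163, Cd207, Ifnar1, Scd1, Smad7 and Tnf. The stricter filter tested fewer low genes and so called fewer T cell, cytotoxic, costimulatory, cytokine and pigment genes. The depth of 16.26 to 20.39 M counts leaves genes below about 0.144 to 0.188 CPM (3 counts) without a usable fold change. The syngeneic means of Ifng, Pdcd1, Tigit, Tcrg-C2 and Lce3a and the allogeneic mean of Trdc lay below this level. Their fitted log2 fold changes and SE are thus no measured ratio. In counts simulated for this comparison over 17345 genes, of which 200 were changed, 17% of 2-fold and 88% of 4-fold changes were recovered. That is a far smaller share of changed genes than the 27.5% called in the data. The adjusted p depends on this share, so the simulated recovery may not hold for the data. Genes not called may still have changed by such amounts.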

Other observations

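Mast cell genes did not move together. The tryptase Tpsb2 rose from 7.62, 4.15, 7.98 and 11.1 CPM in syngeneic to 34.6, 28.4 and 51.1 CPM in allogeneic libraries (log2 fold change 2.30 with SE 0.33, adjusted p = 0.00077, edgeR), while Mrgprb2, a receptor of connective tissue mast cells, fell from 8.71, 7.02, 9.22 and 6.19 CPM to 1.63, 1.45 and 1.62 CPM (log2 fold change −2.31 with SE 0.29, adjusted p = 0.00038). The groups did not overlap for either gene. Of the 10 tested mast cell, basophil and eosinophil genes 5 rose and 2 fell, and 3 rose and 1 fell without syngeneic library 2 or without syngeneic library 4. Jchain, which links antibodies of plasma cells, was at 0.142, 0.244, 0.595 and 0.0469 CPM against 20.4, 17.6 and 65.9 CPM (log2 fold change 7.05 with SE 0.75, adjusted p = 0.0004), with allogeneic library 3 the highest. Without that library its log2 fold change was 6.19, and without syngeneic library 3 it was 7.90. Only 4 immunoglobulin segments passed the filter on low counts, and all 4 rose. All 388 immunoglobulin genes together took 0.00279 to 0.0048% of the counts in syngeneic libraries. Segments so low in controls can pass the filter through allogeneic skin alone, so the rise of those tested is no independent result. Their fitted median log2 fold change of 8.66 is uncertain in size for the same reason. The 1 tested T cell receptor segment was not called.

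Immediate early genes also went both ways. Nr4a1, a nuclear receptor induced by many stimuli, rose from 18.8, 23.3, 34 and 21.5 CPM to 56.4, 52.4 and 56 CPM (log2 fold change 1.17 with SE 0.21, adjusted p = 0.003), while Egr1, a zinc finger factor usually induced with it, fell from 146, 128, 126 and 140 CPM to 68.4, 49.9 and 59 CPM (log2 fold change −1.19 with SE 0.17, adjusted p = 0.00089). Of 12 tested members 5 rose and 3 fell. Among pericyte genes Rgs5 rose from 55.9, 46.5, 43.9 and 38.2 CPM to 129, 115 and 135 CPM (log2 fold change 1.45 with SE 0.17, adjusted p = 0.00032), and Cspg4, which follicle cells also express, fell from 89.5, 79.8, 93 and 80.4 CPM to 17.2, 27.7 and 23.6 CPM (log2 fold change −1.91 with SE 0.20, adjusted p = 0.00016). Igfbp3, a carrier of insulin-like growth factors, rose from 57.2, 51.2, 81 and 68.6 CPM to 167, 147 and 228 CPM (log2 fold change 1.49 with SE 0.22, adjusted p = 0.001), whereas Igfbp4 fell from 192, 189, 349 and 246 CPM to 64.5, 86.5 and 62.5 CPM (log2 fold change −1.78 with SE 0.26, adjusted p = 0.001). Bambi, a decoy receptor of the TGF-beta family that Wnt and BMP signals induce, fell from 30.3, 74.3, 58.2 and 70.5 CPM to 3.46, 3.27 and 2.04 CPM (log2 fold change −4.32 with SE 0.37, adjusted p = 6.4e-05). The groups did not overlap for these 7 genes.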
